A study of Homo sapiens with 14 samples.

Results

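PANC-1 cells, an established line from a human pancreatic ductal adenocarcinoma, were compared after 24 h with proanthocyanidins (PA) and after 24 h with DMSO, the solvent. The comparison holds 4 of the 14 RNA-seq libraries of the series: 2 libraries of cells given 20 µg/ml PA for 24 h, called PA 24 h, and 2 libraries of cells given DMSO for 24 h, called DMSO 24 h. The other 10 libraries are pairs of PA at 3 and 12 h and of DMSO at 0, 3 and 12 h, from the same line in serum-containing medium. Of the 28120 genes with a count, 15181 had enough reads to be tested, and all of these were compared. The labels call the libraries of a pair replicates without saying that they were grown as separate cultures, and the p-values therefore reflect no more than how far these libraries spread. A single line in culture is the whole model, and in bulk RNA fewer cells in a state and less RNA per cell cannot be told apart.

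Proanthocyanidins are plant polyphenols, chains of flavan-3-ol units found in grape seed, cocoa and bark. Several well-known circuits recur in what follows. SREBP factors switch on the enzymes that make cholesterol and fatty acids when membrane sterol is low, hypoxia-inducible factors switch on glycolysis, and ATF4 with its partner CHOP (gene DDIT3) drives the integrated stress response, in which general protein synthesis slows while stress genes are made. Cells that stop dividing lose the RNAs of the replication machinery and of mitosis, which E2F factors and the MuvB complexes with B-MYB and FOXM1 otherwise keep high in S and G2/M phase.

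The 4 libraries held between 29506963 and 34359848 counted reads. CDKN2A and CDKN2B, which lie in a region deleted in this line, had at most 3 reads in any of the 14 libraries, while the neighbouring MTAP was expressed. Duct and epithelial markers summed to 18290 and 21077 CPM (a gene's counts scaled to library size with trimmed-mean factors) in PA 24 h, against 6111 and 6141 CPM in DMSO 24 h, and all 4 libraries had 0 for PRSS1, CPA1, INS and GCG, which mark acinar and islet cells. The keratins KRT8, KRT18 and KRT19 made up nearly all of the duct and epithelial sum in both groups. Fibroblast and endothelial lists summed to at most 1.14 CPM. Among leukocyte markers CD68, also a lysosomal protein, made up nearly all of the sum. Replicates correlated at 0.989 in PA 24 h and 0.996 in DMSO 24 h (Spearman, across genes), against 0.931 to 0.948 between groups. Reads from the mitochondrial genome took 10.0 and 8.23% of the PA 24 h libraries, against 5.29 and 4.76% of the DMSO 24 h libraries.

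After 24 h PA, 4127 genes were higher and 4169 were lower than in DMSO 24 h (edgeR quasi-likelihood test, adjusted p under 0.05), which is 54.6% of the genes tested, 27.2% higher and 27.5% lower. Changes of at least 2-fold were called for 1946 higher and 2281 lower genes, and changes of at least 4-fold for 356 higher and 616 lower genes. Libraries of the 2 groups did not overlap at all for 5926 genes that were higher (39.0%) and 6071 that were lower (40.0%). The median log2 change over all genes was -0.01. On the authors' RPKM values with 1 added before log2, to which these factors were not applied, the median log2 change was -0.10. Gene by gene, the change differed from that of the edgeR fit by a median of -0.28. On these values limma called 2651 genes higher and 5478 lower. Of its calls 32.6% were higher, against 49.7% in the edgeR fit, and the unit, the scaling and the test all differ between these fits. The genes called higher were richer in GC and shorter (medians of 57.1% GC and 2439 nt of transcript) than the genes called lower (42.1% and 4241 nt) or all genes tested (48.8% and 3084 nt). The trend of level on GC content was 0.328 and 0.490 log2 units per 10 points in the PA 24 h libraries and -0.266 and -0.217 in the DMSO 24 h libraries. With each library's trend on GC content and length taken out, 4233 genes were higher and 3300 lower. Of the 8296 genes called without the offset, 5303 were also called with it. Of these 5303, 5101 kept their direction and the rest were called in the opposite direction. How much of any single gene's change goes with base composition was not tested beyond this offset, and the named genes whose call it alters are given further on.

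**Figure D1:**
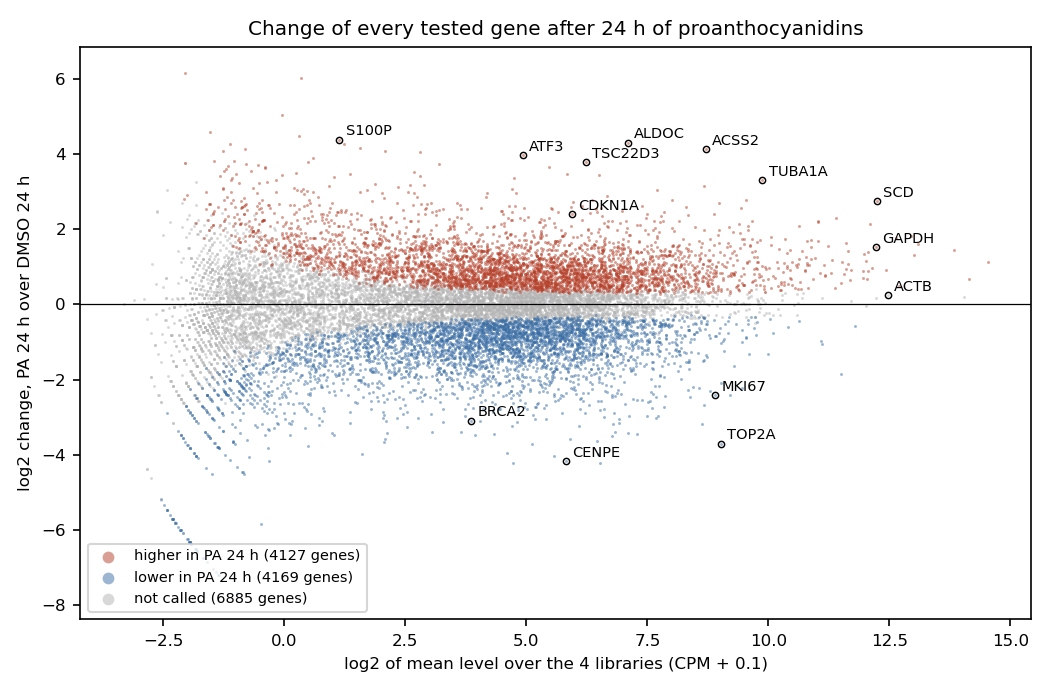
Each point is 1 of the 15181 tested genes; the horizontal axis is the log2 of its mean level over the 4 libraries (CPM + 0.1) and the vertical axis its log2 change, PA 24 h over DMSO 24 h. Red points are the 4127 genes called higher, blue points the 4169 called lower and grey points the 6885 not called; calls run through the whole range of levels, with GAPDH at 1.53.

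Several classes of noncoding RNA were lower more often than higher. Of 706 long intergenic noncoding RNAs 151 were lower (21.4%) and 70 higher (9.92%). Of 1107 antisense RNAs 228 were lower (20.6%) and 151 higher (13.6%). Of 12841 protein-coding genes 3646 were lower (28.4%) and 3838 higher (29.9%). Both noncoding classes thus had smaller shares than protein-coding genes in either direction, most of all among the higher. Of 58 sense-intronic RNAs 24 were lower (41.4%) and none higher, and of 31 small nucleolar RNAs 8 were lower (25.8%) and none higher. Antisense and intronic RNAs overlap other genes, and the use of strand in counting is not stated in the labels, so their reads and those of the host genes cannot be told apart.

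The 10 largest rises among genes above 2 CPM joined lipid, hypoxia, stress and cytoskeletal genes. S100P, a secreted calcium-binding protein of pancreatic cancers, had 3.42 and 4.6 CPM in PA 24 h, against 0.246 and 0.128 CPM in DMSO 24 h, a fitted rise of 21-fold. ALDOC, an aldolase of glycolysis, had 248 and 274 CPM in PA 24 h, against 17.1 and 9.1 CPM in DMSO 24 h. ACSS2, which makes acetyl-CoA from acetate, had 701 and 881 CPM in PA 24 h, against 54.4 and 35.7 CPM in DMSO 24 h. Only genes with both PA libraries above both DMSO libraries could enter this ranking, and in these 3 genes the margin was wide. CA9, the carbonic anhydrase that hypoxia induces at the cell surface, had 3.45 and 5.09 CPM in PA 24 h, against 0.43 and 0 CPM in DMSO 24 h, so the size of its rise rests on a group with few reads. LCN2, a protein that binds iron-carrying siderophores, had 5.04 and 5.75 CPM in PA 24 h, against 0.246 and 0.351 CPM in DMSO 24 h, and TSC22D3, the glucocorticoid-induced leucine zipper protein, had 121 and 157 CPM in PA 24 h, against 9.86 and 10.3 CPM in DMSO 24 h. HDAC5, a histone deacetylase, stood at 79.1 and 84.3 CPM in PA 24 h, against 6.27 and 6.64 CPM in DMSO 24 h. The other 3 were TPPP3, TUBB2B and ATF3, described with their groups. Among genes above 200 CPM the largest rises were those of ACSS2, TUBA1A, GDF15, MVD and VAT1. GDF15, a secreted stress cytokine, had 851 and 610 CPM in PA 24 h, against 78.7 and 84.9 CPM in DMSO 24 h (log2 change 3.16 ± 0.34, SE, n = 2 libraries a group, here and after, adjusted p = 1.29e-05). VAT1, a membrane protein of vesicles and mitochondria, had 401 and 501 CPM in PA 24 h, against 62 and 68.5 CPM in DMSO 24 h.

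The 10 largest falls were mostly genes of mitosis and replication. CENPE, the kinesin that carries chromosomes to the spindle equator, had 8.25 and 3.7 CPM in PA 24 h, against 82.6 and 131 CPM in DMSO 24 h, a fall of 17.9-fold. FAM111B, a protease whose RNA peaks in S phase, had 3.6 and 1.78 CPM in PA 24 h, against 39.9 and 59.9 CPM in DMSO 24 h. SGOL2, a shugoshin that guards cohesin at centromeres, had 12.9 and 6.03 CPM in PA 24 h, against 146 and 204 CPM in DMSO 24 h. The ranking required separated groups here too. In each of the 3 genes PA library 1 was the higher of its pair and DMSO library 1 the lower of its pair. TOP2A, the topoisomerase that untangles sister chromatids, had 92.5 and 56.2 CPM in PA 24 h, against 898 and 1036 CPM in DMSO 24 h (log2 change -3.70 ± 0.41, adjusted p = 1.54e-05). The ubiquitin ligase gene TRIM59 had 5.64 and 4.15 CPM in PA 24 h, against 59.5 and 69 CPM in DMSO 24 h, and EDRF1, named for erythroid differentiation, had 0.494 and 0.209 CPM in PA 24 h, against 6.27 and 4.82 CPM in DMSO 24 h. The other 4 were KIF15, KIF18A, ASPM and DLGAP5, all spindle genes. PPIG, a nuclear cyclophilin that binds splicing factors, and RAD50, a double-strand break sensor, joined TOP2A, CENPF and KIF23 as the largest falls above 200 CPM. PPIG had 54.8 and 40.8 CPM in PA 24 h, against 311 and 437 CPM in DMSO 24 h.

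**Figure D2:**
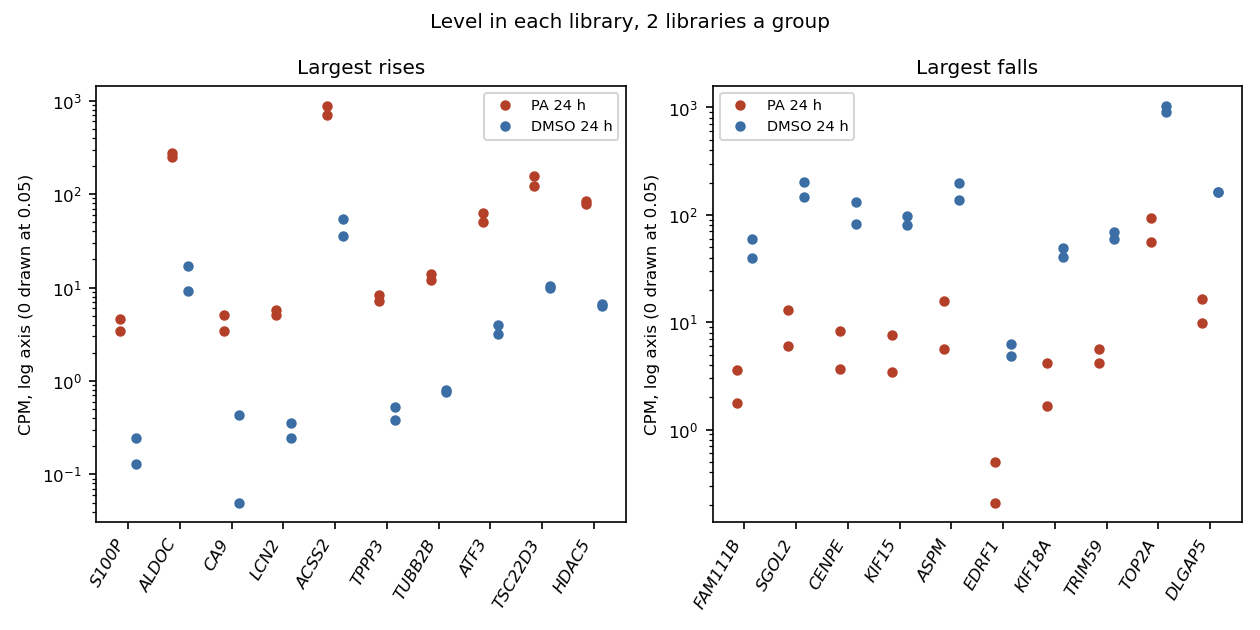
Levels in CPM on a log axis in the 2 PA 24 h libraries (red, left of each pair) and the 2 DMSO 24 h libraries (blue) for the 10 largest rises and the 10 largest falls among genes with a mean of at least 2 CPM. Only genes whose groups do not overlap could enter this ranking. The DMSO 24 h library of CA9 drawn at 0.05 has 0 reads.

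Lists of genes with known roles were then read against these background shares. The members named include the called ones with the smallest p, so separated groups among them follow largely from that choice. Over all tested genes the groups did not overlap for 39% that were higher and 40% that were lower. The plot of list shares orders the lists by the median log2 change of their tested members. Stress, glycolysis and sterol lists stood at the top and spindle, kinetochore and centrosome lists at the bottom.

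**Figure D3:**
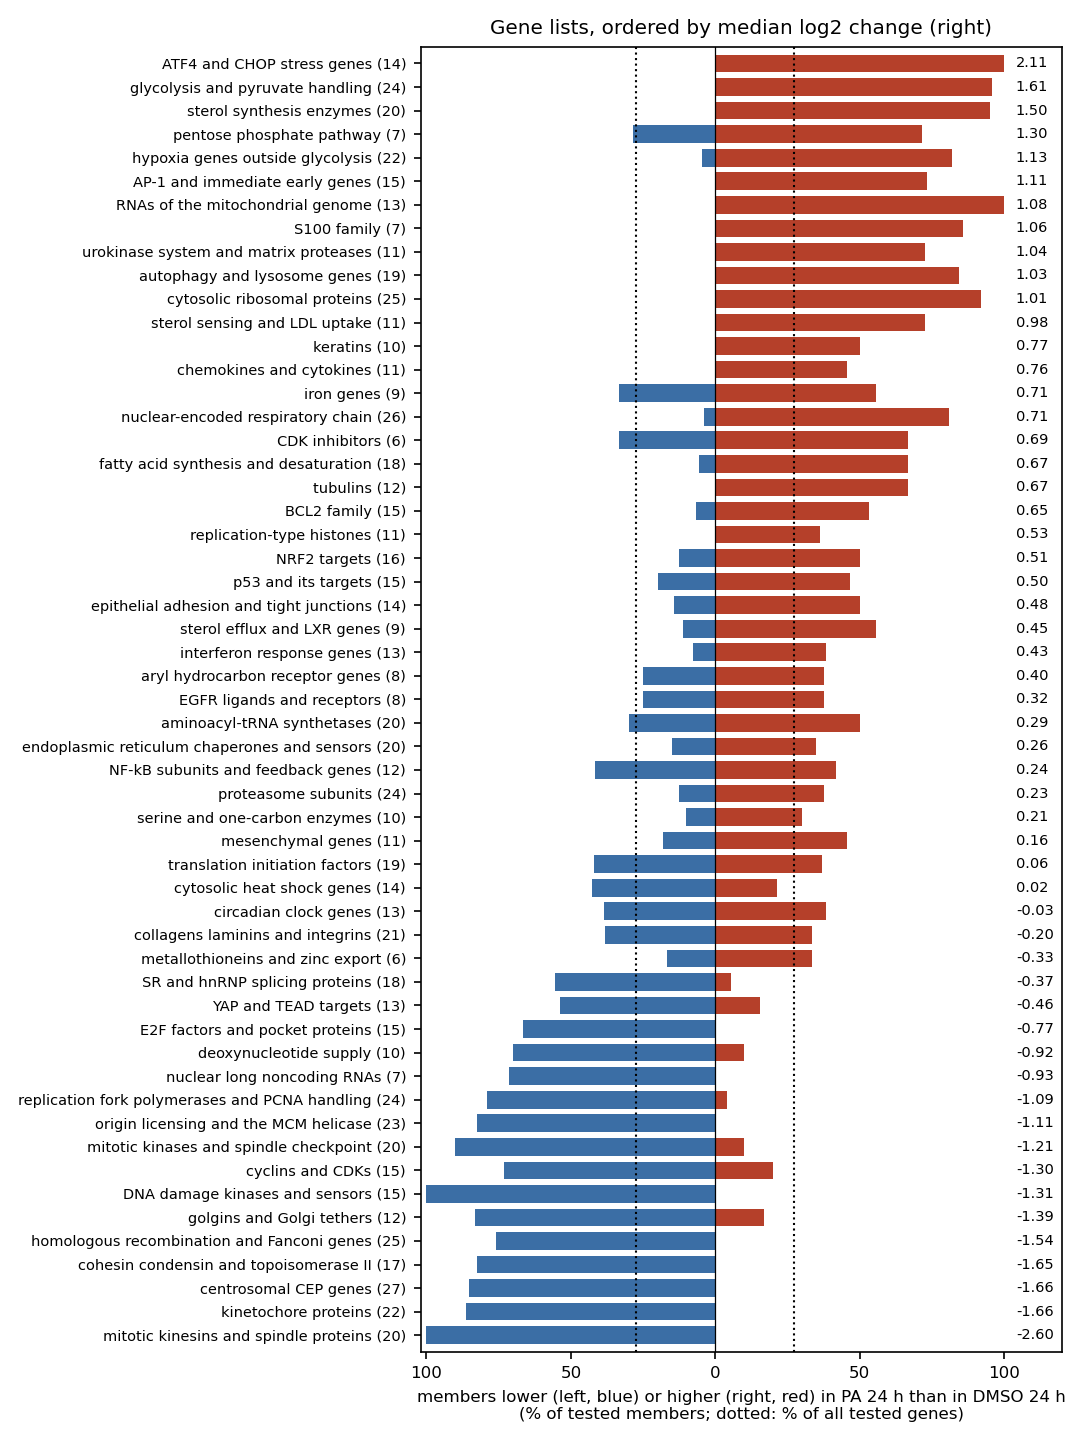
For each list (number of tested members in brackets), bars give the share of tested members lower (blue, to the left) or higher (red, to the right) in PA 24 h than in DMSO 24 h, with the median log2 change at the right; dotted lines mark the shares over all genes, 27.5% lower and 27.2% higher. The ATF4 and CHOP list is at the top (14 of 14 higher, median 2.11) and the kinesin and spindle list at the bottom (20 of 20 lower, median -2.60).

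RNAs of cholesterol synthesis rose at nearly every step. Of 20 enzymes from acetyl-CoA to cholesterol 19 were higher and none lower, with a median log2 change of 1.5, and IDI1 at 0.599 and 0.558 CPM in PA 24 h, against 0.553 and 0.447 CPM in DMSO 24 h did not pass. The list summed to 7459 and 8113 CPM in PA 24 h, against 2508 and 2068 CPM in DMSO 24 h. TM7SF2, a sterol C14 reductase, had 167 and 163 CPM in PA 24 h, against 16.5 and 13.6 CPM in DMSO 24 h (log2 change 3.45 ± 0.24, adjusted p = 1.19e-06). MVD, which makes isopentenyl pyrophosphate by decarboxylation, had 334 and 403 CPM in PA 24 h, against 49.2 and 40.4 CPM in DMSO 24 h (log2 change 3.04 ± 0.21). EBP, the sterol isomerase, had 902 and 839 CPM in PA 24 h, against 147 and 122 CPM in DMSO 24 h. These late and middle steps sat far apart between groups. SQLE, the squalene epoxidase, had 483 and 459 CPM in PA 24 h, against 261 and 210 CPM in DMSO 24 h, a log2 change of 1.0. FDPS at 2.56 ± 0.19, DHCR7 at 2.38 ± 0.19 and LSS at 2.11 ± 0.17 lay between it and TM7SF2. Under the GC and length offset 19 of 20 were still higher, with a median of 1.65.

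Genes of sterol sensing and transport followed in part. Of 11 tested genes of sterol sensing and LDL uptake 8 were higher and none lower (median 0.98). INSIG1, which holds SREBP in the endoplasmic reticulum when sterol is plentiful, had 525 and 547 CPM in PA 24 h, against 253 and 205 CPM in DMSO 24 h. NPC2, which hands LDL cholesterol out of the lysosome, had 65.4 and 61.7 CPM in PA 24 h, against 21 and 19.2 CPM in DMSO 24 h. SREBF2, the gene of SREBP-2, rose by 1.28, and SREBF1 by 1.20, on the log2 scale. STARD4 and MYLIP were among those that did not pass. Of 9 efflux and LXR genes 5 were higher and 1 lower, but with the 24 h libraries left out 1 at a time, here and in later lists, 3 were higher without PA library 2, DMSO library 1 or DMSO library 2, and none lower without PA library 1 or DMSO library 2. APOE, the lipoprotein that accepts cholesterol, had 48.6 and 48 CPM in PA 24 h, against 7.01 and 5.36 CPM in DMSO 24 h, whereas ABCA1, the main cholesterol exporter, had 2.29 and 2.48 CPM in PA 24 h, against 2.95 and 2.84 CPM in DMSO 24 h, and did not pass.

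A sterol regulatory element, TCACNCCAC on either strand, was looked for in the RefSeq promoter windows (GRCh38.p14, 250 bases before to 50 after each start). The SREBF2 window holds one, shown because its product is the factor that binds such elements, and it is the only match among the 9 sensing and uptake genes with a window. None of the 15 synthesis enzymes with a window and none of the 18 fatty acid genes with a window matched, against 1.39% of the 27305 genes in the table. The stretch around the SREBF2 match lies upstream of the start at chr22:41832948-41833004 on the plus strand, with the element in capitals:
SREBF2: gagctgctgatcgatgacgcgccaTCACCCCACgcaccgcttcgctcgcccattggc

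Fatty acid genes rose at the entry of carbon and at desaturation. Of 18 tested genes 12 were higher and 1 lower (median 0.67). Fewer were higher when any 1 of the 4 libraries was left out, and fewest without PA library 2. SCD, the desaturase that makes oleate, had 7936 and 9030 CPM in PA 24 h, against 1444 and 1055 CPM in DMSO 24 h. Per length it had the highest level of the tested members, with 1136 and 1324 RPKM in PA 24 h, against 264 and 189 RPKM in DMSO 24 h. FADS2, a desaturase of polyunsaturated chains, had 1257 and 1355 CPM in PA 24 h, against 208 and 171 CPM in DMSO 24 h, and FASN, the fatty acid synthase, had 696 and 909 CPM in PA 24 h, against 211 and 196 CPM in DMSO 24 h (log2 change 1.98 ± 0.22). Both PA libraries were above both DMSO libraries for each of these. ACLY, which makes acetyl-CoA from citrate, had 1166 and 1320 CPM in PA 24 h, against 311 and 270 CPM in DMSO 24 h. ACACA, the carboxylase that commits acetyl-CoA to fatty acids, rose by only 0.45 on the log2 scale. GPAM, which attaches the first acyl chain to glycerol phosphate, was the member that fell, with 5.71 and 2.86 CPM in PA 24 h, against 15.7 and 15.9 CPM in DMSO 24 h.

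RNAs of glycolysis rose at nearly every step. Of 24 tested genes 23 were higher and none lower (median 1.61), and the list summed to 53642 and 60289 CPM in PA 24 h, against 18825 and 18814 CPM in DMSO 24 h. The transporter SLC2A1 had 126 and 148 CPM in PA 24 h, against 49.1 and 51.5 CPM in DMSO 24 h. ALDOA, the main aldolase, had 6490 and 7818 CPM in PA 24 h, against 1580 and 1634 CPM in DMSO 24 h, and PGK1, which makes the first ATP, had 2313 and 2854 CPM in PA 24 h, against 630 and 589 CPM in DMSO 24 h (log2 change 2.08 ± 0.15, adjusted p = 1.2e-06). PKM, the pyruvate kinase, had 11606 and 12938 CPM in PA 24 h, against 3339 and 3544 CPM in DMSO 24 h. None of these 4 genes had overlapping groups, though members were named partly by their small p, which favours this. GAPDH, often used as a reference gene, had 6679 and 7597 CPM in PA 24 h, against 2459 and 2467 CPM in DMSO 24 h (log2 change 1.53 ± 0.16), while ACTB had 6036 and 6325 CPM in PA 24 h, against 4813 and 5517 CPM in DMSO 24 h, and did not pass, with a log2 change of 0.26 here, -0.22 under the GC and length offset and -0.06 on the RPKM scales. LDHA and the lactate exporter SLC16A3 rose by 1.16 and 1.75 on the log2 scale. PDK1, which shuts pyruvate out of the mitochondrion, had 52.8 and 52.9 CPM in PA 24 h, against 41.3 and 35.6 CPM in DMSO 24 h, and was the member that did not pass; under the GC and length offset its change was 1.42 and passed. GAPDH and PGK1 have many processed pseudogenes, so their counts are less certain than the others.

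Of 22 tested hypoxia genes outside glycolysis 18 were higher and 1 lower (median 1.13). NDRG1, a stress-induced growth regulator, had 510 and 571 CPM in PA 24 h, against 92.6 and 87.4 CPM in DMSO 24 h. ANGPTL4, which inhibits lipoprotein lipase, had 338 and 435 CPM in PA 24 h, against 70.5 and 68.6 CPM in DMSO 24 h. BNIP3, a mitophagy receptor, had 1156 and 1199 CPM in PA 24 h, against 418 and 364 CPM in DMSO 24 h (log2 change 1.59 ± 0.14, adjusted p = 3.15e-06). The groups were again apart. VEGFA, the endothelial growth factor, rose by 0.96 on the log2 scale. HIF1A itself, whose product is controlled mainly through its stability, was the member that fell, with 80.3 and 58.8 CPM in PA 24 h, against 166 and 181 CPM in DMSO 24 h, and its call was lost under the GC and length offset, at -0.21. PLOD2, KDM3A and EGLN1 did not pass.

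The core letters of a hypoxia response element, ACGTG on either strand, were present in the windows of 15 of 23 glycolysis genes (65.2%) and 12 of 19 other hypoxia genes (63.2%), against 24.9% of all genes in the table. They were as frequent in lists that did not rise, with 12 of 17 splicing genes (70.6%), 9 of 13 clock genes (69.2%) and 6 of 10 golgins (60%). Several of these genes have more than 1 window, and per window the shares were 38.8% and 55.6%, against 21.4%. A match is a description of letters and not of a bound site. PGK1 and LDHA are shown because both rose and their promoters carry the letters; the PGK1 stretch is chrX:78104022-78104074 on the plus strand and the LDHA stretch chr11:18394453-18394505 on the plus strand, each upstream of the start with 1 copy of the core in capitals and any further copy unmarked:
PGK1: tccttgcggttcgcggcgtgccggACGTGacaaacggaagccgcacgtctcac
LDHA: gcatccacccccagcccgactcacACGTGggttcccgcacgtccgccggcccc

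Of 7 pentose phosphate genes 5 were higher and 2 lower (median 1.30, and 0.43 under the GC and length offset). Without PA library 2 none was lower, and without DMSO library 2, 1 was. PGD, of the oxidative branch, had 851 and 824 CPM in PA 24 h, against 293 and 285 CPM in DMSO 24 h. TKT, which rearranges sugars in the other branch, had 1000 and 1151 CPM in PA 24 h, against 312 and 332 CPM in DMSO 24 h, whereas RPIA and RPE fell by 0.58 and 0.62 on the log2 scale. The call for RPE was in the opposite direction under the GC and length offset, at 0.43.

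Transcripts of mitochondrial energy production were higher. All 13 RNAs of the mitochondrial genome rose (median 1.08), and they summed to 75970 and 69393 CPM in PA 24 h, against 27931 and 30584 CPM in DMSO 24 h. MT-CO1, a catalytic subunit of cytochrome oxidase, had 22326 and 20591 CPM in PA 24 h, against 7665 and 8056 CPM in DMSO 24 h, and MT-ND3, of complex I, had 4753 and 4174 CPM in PA 24 h, against 857 and 945 CPM in DMSO 24 h. Both groups were tight beside the distance between them. Of 26 tested nuclear-encoded respiratory chain subunits 21 were higher and 1 lower (median 0.71). COX5B had 279 and 344 CPM in PA 24 h, against 78.6 and 78 CPM in DMSO 24 h, and NDUFA1 had 177 and 182 CPM in PA 24 h, against 60 and 54.1 CPM in DMSO 24 h. SDHD, an anchor of succinate dehydrogenase, was the member that fell, with 18.9 and 19.8 CPM in PA 24 h, against 36.7 and 37.9 CPM in DMSO 24 h.

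The stress genes of ATF4 and CHOP rose without exception. All 14 tested members were higher, with a median log2 change of 2.11, the highest of the lists in the plot. Under the GC and length offset all 14 were still higher, with a median of 1.64, against 1.65 for sterol synthesis. ATF3, an early stress repressor, had 50.5 and 63.2 CPM in PA 24 h, against 3.2 and 3.99 CPM in DMSO 24 h (log2 change 3.98 ± 0.22, adjusted p = 5.54e-07). DDIT3, which encodes CHOP, had 246 and 183 CPM in PA 24 h, against 36.2 and 40.2 CPM in DMSO 24 h (log2 change 2.49 ± 0.20). NUPR1, a small chromatin protein of stressed pancreas, had 186 and 172 CPM in PA 24 h, against 25.1 and 22.9 CPM in DMSO 24 h. PA and DMSO libraries lay far apart in all 3. CHAC1, which degrades glutathione, had 33.1 and 42.6 CPM in PA 24 h, against 7.19 and 6.32 CPM in DMSO 24 h, and SESN2, a leucine sensor that restrains mTORC1, had 35.7 and 50.1 CPM in PA 24 h, against 6.45 and 7.57 CPM in DMSO 24 h. TRIB3, a pseudokinase that feeds back on ATF4, had 39.1 and 57.3 CPM in PA 24 h, against 8.24 and 11.3 CPM in DMSO 24 h. DDIT4, another brake on mTORC1, had 372 and 377 CPM in PA 24 h, against 86.4 and 72.8 CPM in DMSO 24 h. PPP1R15A, which brings the phosphatase that ends the response, had 189 and 183 CPM in PA 24 h, against 40.7 and 52.8 CPM in DMSO 24 h. ATF4 itself, controlled largely in translation, rose by 1.18, and ASNS, the asparagine synthetase, by only 0.38 on the log2 scale. In the windows of 15 of these genes the composite element TGATGCAAT was found on either strand in 1 (6.67%), that of FGF21, which was not tested for lack of reads, against 0.293% of all genes with a promoter window.

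Other arms of the stress response did not follow as a group. Of 20 endoplasmic reticulum chaperones and sensors 7 were higher and 3 lower, near the background shares, and 4 were higher without DMSO library 2. HSPA5, the central chaperone BiP, had 765 and 734 CPM in PA 24 h, against 731 and 762 CPM in DMSO 24 h, and did not pass. HERPUD1, of the degradation complex, rose by 1.32, and the PERK kinase EIF2AK3 by 0.78, while HSP90B1 fell by 1.32 on the log2 scale. Of 14 cytosolic heat shock genes 3 were higher and 6 lower. HSP90AA1, the inducible HSP90, had 1480 and 1040 CPM in PA 24 h, against 4210 and 4825 CPM in DMSO 24 h, whereas HSPA1A had 37.4 and 38.4 CPM in PA 24 h, against 30.5 and 29.7 CPM in DMSO 24 h, and did not pass. Aminoacyl-tRNA synthetases divided into 10 higher and 6 lower of 20, with QARS up by 1.0 and EPRS, which is long and low in GC, down by 1.26; without DMSO library 1 they were 6 higher and 2 lower, and without PA library 2, 3 were lower. Of 10 serine and one-carbon enzymes 3 were higher and 1 lower. PHGDH, the entry of serine synthesis, had 99.4 and 113 CPM in PA 24 h, against 54.2 and 57.2 CPM in DMSO 24 h, and PSAT1, the next enzyme, had 94.5 and 103 CPM in PA 24 h, against 93.5 and 105 CPM in DMSO 24 h, and did not pass.

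Antioxidant and iron genes were mixed. Of 16 NRF2 targets and regulators 8 were higher and 2 lower (median 0.51), with 1 lower without PA library 2. HMOX1, the heme oxygenase, had 41.4 and 47 CPM in PA 24 h, against 7.1 and 9.07 CPM in DMSO 24 h (log2 change 2.45 ± 0.25, adjusted p = 9.98e-06). TXNRD1, the thioredoxin reductase, had 625 and 590 CPM in PA 24 h, against 277 and 267 CPM in DMSO 24 h, whereas GCLC, of glutathione synthesis, had 65.3 and 55 CPM in PA 24 h, against 61.5 and 60.5 CPM in DMSO 24 h, and did not pass. NFE2L2, which encodes NRF2, fell by 0.85 on the log2 scale. Of 9 iron genes 5 were higher and 3 lower, with 1 lower without PA library 1. FTH1, the heavy ferritin chain, had 272 and 284 CPM in PA 24 h, against 70.1 and 71.2 CPM in DMSO 24 h. FTL, the light chain, had 564 and 636 CPM in PA 24 h, against 191 and 194 CPM in DMSO 24 h. The transferrin receptor TFRC had 345 and 343 CPM in PA 24 h, against 532 and 453 CPM in DMSO 24 h, a fall that was lost under the GC and length offset. FTH1 and FTL have many pseudogenes and their counts are uncertain. Among 8 aryl hydrocarbon receptor genes 3 were higher and 2 lower, with CYP1B1 at 131 and 93.9 CPM in PA 24 h, against 243 and 260 CPM in DMSO 24 h; 1 was higher without DMSO library 2, and 1 lower without PA library 1 or 2.

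Autophagy and lysosome genes rose together, 16 of 19 higher and none lower (median 1.03). On the RPKM scale with 1 added 11 were higher. SQSTM1, the receptor p62, had 3304 and 3850 CPM in PA 24 h, against 1163 and 1286 CPM in DMSO 24 h. ULK1, the kinase that starts autophagy, had 64.6 and 82 CPM in PA 24 h, against 21.8 and 25.3 CPM in DMSO 24 h, and GABARAPL1, a membrane tag of the phagophore, had 27.5 and 28.5 CPM in PA 24 h, against 10.5 and 9.52 CPM in DMSO 24 h. CTSD, a lysosomal protease, had 79.5 and 86.5 CPM in PA 24 h, against 22.7 and 24.7 CPM in DMSO 24 h (log2 change 1.81 ± 0.20, adjusted p = 1.4e-05). No gene of these 4 had overlapping groups, and 15 of 19 were still higher under the GC and length offset. Metallothioneins did not move as a group: of 6 tested genes of the metallothionein and zinc list 2 were higher and 1 lower, none was higher without DMSO library 2 and at most 1 without any other library, and MT2A had 469 and 468 CPM in PA 24 h, against 556 and 611 CPM in DMSO 24 h, without passing. The lower member, the zinc exporter SLC30A1, lost its call when any 1 of the 4 libraries was left out. It stood at -0.76 on the log2 scale and at 0.31 under the offset.

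RNAs of the replication machinery fell. Of 23 origin licensing and helicase genes 19 were lower and none higher (median -1.11). MCM10, which readies the helicase, had 9.66 and 9.87 CPM in PA 24 h, against 48.4 and 50.7 CPM in DMSO 24 h (log2 change -2.34 ± 0.19, adjusted p = 2.13e-06). CDC7, the kinase that fires origins, had 6.91 and 8.61 CPM in PA 24 h, against 43.1 and 43.8 CPM in DMSO 24 h, and its activator DBF4 had 11.9 and 9.31 CPM in PA 24 h, against 64.1 and 66 CPM in DMSO 24 h. MCM4, a helicase subunit, had 120 and 118 CPM in PA 24 h, against 333 and 342 CPM in DMSO 24 h. Groups were well apart in each. MCM2 had 165 and 182 CPM in PA 24 h, against 166 and 197 CPM in DMSO 24 h, and MCM7 had 142 and 169 CPM in PA 24 h, against 167 and 181 CPM in DMSO 24 h, and neither passed, nor did CDT1 and ORC4; with the offset for GC content and length, MCM2 stood at -0.54 and MCM7 at -0.65, and 21 of 23 were lower.

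Of 24 replication fork genes 19 were lower and 1 higher (median -1.09). PRIM1, the primase, had 11.9 and 10.7 CPM in PA 24 h, against 55.7 and 55.9 CPM in DMSO 24 h. PCNA, the sliding clamp, had 92.7 and 106 CPM in PA 24 h, against 288 and 283 CPM in DMSO 24 h (log2 change -1.52 ± 0.18, adjusted p = 2.73e-05). POLD2, a polymerase delta subunit, was the member that rose, with 139 and 162 CPM in PA 24 h, against 71.2 and 73.6 CPM in DMSO 24 h. Of 10 genes of deoxynucleotide supply 7 were lower and 1 higher. RRM2, the regulatory subunit of ribonucleotide reductase, fell, with 159 and 178 CPM in PA 24 h, against 382 and 416 CPM in DMSO 24 h. TK1, the thymidine kinase of S phase, was the member called higher, with 46.4 and 51.9 CPM in PA 24 h, against 32.5 and 38.8 CPM in DMSO 24 h, and its call was lost when any 1 of the 4 libraries was left out. Of 11 histone genes 4 were higher and none lower, against 2 higher and 2 lower without PA library 1 and 2 higher without DMSO library 2. HIST1H1C, a linker histone, had 90.1 and 81.1 CPM in PA 24 h, against 41.4 and 37.2 CPM in DMSO 24 h, but 8 of the 11 were below 6 CPM in every library and these families share sequence.

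An E2F site, TTTCCCGC or TTTGGCGC on either strand, was counted in the licensing genes. The first was present in 7 of 20 genes with a window (35%) against 1.98% of all genes, and the second in 4 of 20 (20.0%) against 0.795%. MCM6, a helicase subunit, fell by 1.44 on the log2 scale and is shown because it carries the second motif more than once. The stretch shown lies upstream of the start on the minus strand at chr2:135876564-135876619, with the motif in capitals:
MCM6: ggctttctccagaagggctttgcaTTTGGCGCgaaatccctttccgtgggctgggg

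Repair genes of S phase fell. Of 25 homologous recombination and Fanconi genes 19 were lower and none higher (median -1.54). BRCA1 had 11 and 5.51 CPM in PA 24 h, against 53.2 and 59.2 CPM in DMSO 24 h, and BRCA2 had 4.69 and 1.36 CPM in PA 24 h, against 21.2 and 30.5 CPM in DMSO 24 h. EXO1, which resects DNA ends, had 16 and 12.6 CPM in PA 24 h, against 69.4 and 74 CPM in DMSO 24 h (log2 change -2.33 ± 0.19, adjusted p = 2.13e-06). As a ratio, BRCA2 differed more between the PA libraries than between the DMSO libraries, and EXO1 was even in both groups. FANCC, FANCE and FANCF did not pass. All 15 DNA damage kinases and sensors were lower (median -1.31). CLSPN, the adaptor that lets ATR activate CHK1, had 57.8 and 41.7 CPM in PA 24 h, against 306 and 362 CPM in DMSO 24 h, and ATR had 10.3 and 9.2 CPM in PA 24 h, against 40.5 and 39.1 CPM in DMSO 24 h. PRKDC, the DNA-dependent kinase, had 180 and 181 CPM in PA 24 h, against 438 and 451 CPM in DMSO 24 h, and TP53BP1, which fell by 0.44 on the log2 scale, was the smallest change and lost its call under the offset.

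Most cyclins fell. Of 15 tested cyclins, CDKs and CDC25 phosphatases 11 were lower and 3 higher (median -1.30). CCNE2, which drives entry into S phase, had 1.23 and 0.906 CPM in PA 24 h, against 7.62 and 9.74 CPM in DMSO 24 h. CCNA2 had 26.6 and 25.9 CPM in PA 24 h, against 88.2 and 86.4 CPM in DMSO 24 h, and CCNB1, the cyclin of mitosis, had 169 and 157 CPM in PA 24 h, against 410 and 402 CPM in DMSO 24 h. These 3 fell with no overlap of groups. CCND1, the cyclin that mitogens induce, fell by 0.58, whereas CCND3 and CDK4 rose by 0.58 and 0.61 and CDC25B by 0.59 on the log2 scale. The 3 rises were lost under the GC and length offset and without DMSO library 1, and 1 was left without PA library 2. Of 15 E2F factors, pocket proteins and partners 10 were lower and none higher: RBL1 (p107) had 5.46 and 3.63 CPM in PA 24 h, against 26.2 and 23.6 CPM in DMSO 24 h, FOXM1 had 36.9 and 46.7 CPM in PA 24 h, against 64.1 and 78.9 CPM in DMSO 24 h, and E2F1 had 55.1 and 50.1 CPM in PA 24 h, against 51 and 64.8 CPM in DMSO 24 h, without passing.

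CDK inhibitors were split. CDKN1A, the p21 inhibitor, had 89.7 and 116 CPM in PA 24 h, against 17.9 and 20.9 CPM in DMSO 24 h (log2 change 2.40 ± 0.18, adjusted p = 1.67e-06), and 0 h DMSO cells had 49.6 and 56.4 CPM. Both DMSO 24 h libraries were thus below the 0 h libraries and both PA 24 h libraries above them, a comparison over time that was not tested. CDKN2D (p19) rose by 1.26 and CDKN1C by 0.98, the second without a call under the offset. CDKN2C (p18) had 45.3 and 45.6 CPM in PA 24 h, against 63.3 and 68.9 CPM in DMSO 24 h, and CDKN3, a phosphatase, had 21.9 and 26.1 CPM in PA 24 h, against 73 and 69.3 CPM in DMSO 24 h; both fell. MKI67, the proliferation marker, had 179 and 124 CPM in PA 24 h, against 760 and 843 CPM in DMSO 24 h (log2 change -2.40 ± 0.16, adjusted p = 1.19e-06). The 0 h DMSO libraries had 1251 and 1266 CPM. Of 15 p53 genes 7 were higher (4 without DMSO library 1) and 3 lower in these cells, whose p53 is mutant: BBC3 (PUMA) had 19.4 and 17.4 CPM in PA 24 h, against 4.06 and 3.86 CPM in DMSO 24 h, whereas MDM2 had 31.8 and 26.3 CPM in PA 24 h, against 76.7 and 68.6 CPM in DMSO 24 h.

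Genes of mitosis fell. All 20 mitotic kinesins and spindle proteins were lower (median -2.60), and they summed to 1536 and 1309 CPM in PA 24 h, against 5280 and 5689 CPM in DMSO 24 h. KIF15, a motor that backs up the spindle, had 7.54 and 3.42 CPM in PA 24 h, against 80.4 and 97.5 CPM in DMSO 24 h. KIF18A, which damps chromosome movement, had 4.16 and 1.64 CPM in PA 24 h, against 40.9 and 49.6 CPM in DMSO 24 h. KIF20A, a motor of cytokinesis, had 40.7 and 42 CPM in PA 24 h, against 142 and 144 CPM in DMSO 24 h (log2 change -1.79 ± 0.13, adjusted p = 1.19e-06). KIF15 and KIF18A differed more than 2-fold between the PA libraries, while KIF20A was even. ASPM, of the spindle poles, had 15.7 and 5.65 CPM in PA 24 h, against 138 and 196 CPM in DMSO 24 h, and TPX2, the activator of Aurora A, had 304 and 301 CPM in PA 24 h, against 905 and 980 CPM in DMSO 24 h. All 20 stayed lower under the GC and length offset, with a median of -2.0.

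Of 20 mitotic kinases and checkpoint genes 18 were lower and 2 higher (median -1.21). AURKA had 69.7 and 66.3 CPM in PA 24 h, against 225 and 232 CPM in DMSO 24 h. BUB1B, the checkpoint kinase BubR1, had 39.3 and 30.8 CPM in PA 24 h, against 197 and 184 CPM in DMSO 24 h (log2 change -2.44 ± 0.24, adjusted p = 7.91e-06), and PLK1 had 44.5 and 51.3 CPM in PA 24 h, against 107 and 128 CPM in DMSO 24 h. The groups did not overlap for any of these. The members that rose were MAD1L1 and FZR1, by 0.65 and 0.52 on the log2 scale, and neither held under the offset or without DMSO library 1, and 1 of them without PA library 2 or DMSO library 2. Of 22 kinetochore proteins 19 were lower and none higher (median -1.66): NDC80, which grips microtubules, had 28.5 and 18.8 CPM in PA 24 h, against 235 and 268 CPM in DMSO 24 h, and CENPF had 108 and 48.9 CPM in PA 24 h, against 620 and 815 CPM in DMSO 24 h. SPC24, CENPM and CENPW did not pass. Of 17 cohesin, condensin and topoisomerase genes 14 were lower and none higher (median -1.65, and -0.97 under the offset); SMC3, of the cohesin ring, had 72.3 and 31.9 CPM in PA 24 h, against 282 and 344 CPM in DMSO 24 h, and NCAPH, of condensin, had 31 and 32.4 CPM in PA 24 h, against 97.6 and 101 CPM in DMSO 24 h.

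The cell cycle gene homology region, TTTGAA on either strand, which MuvB complexes bind, was present in the windows of 16 of 19 kinesin and spindle genes (84.2%), 9 of 14 mitotic kinase and checkpoint genes (64.3%), 9 of 16 cohesin, condensin and topoisomerase genes (56.2%), 9 of 17 kinetochore genes (52.9%), 11 of 25 CEP genes (44.0%) and 4 of 12 cyclins and CDKs (33.3%), against 18.2% of all genes. Lists that did not fall as groups reached shares like the lower ones here, with 3 of 8 mesenchymal and 3 of 8 efflux and LXR genes (37.5% each). Other falling lists had it rarely, in 1 of 20 licensing genes (5%), 2 of 22 recombination and Fanconi genes (9.09%) and 0 of 19 replication fork genes. Among the kinesin and spindle genes, KIF18A carries the motif 5 bases before its start, nearer than the genes shown. The 4 genes shown are examples that all fell, with the motif upstream of the start, in capitals and read in the direction of the gene. They are KIF23 at chr15:69414270-69414323, PLK1 at chr16:23678836-23678888, BUB1B at chr15:40161022-40161068 and KIF4A at chrX:70290046-70290099, all on the plus strand:
KIF23: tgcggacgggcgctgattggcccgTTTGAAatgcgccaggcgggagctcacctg
PLK1: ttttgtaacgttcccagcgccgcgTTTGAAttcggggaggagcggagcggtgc
BUB1B: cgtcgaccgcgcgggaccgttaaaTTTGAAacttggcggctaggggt
KIF4A: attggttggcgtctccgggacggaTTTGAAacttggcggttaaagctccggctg

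RNAs for scaffolds of the centrosome and the Golgi also fell. Of 27 centrosomal CEP genes 23 were lower and none higher (median -1.66, and -0.98 under the GC and length offset, with 23 lower and 1 higher); CEP152, which recruits PLK4, had 9.06 and 5.68 CPM in PA 24 h, against 45.2 and 53.3 CPM in DMSO 24 h, and CEP290, of the ciliary gate, had 16.5 and 6.9 CPM in PA 24 h, against 39.4 and 56.8 CPM in DMSO 24 h. Of 12 golgins and Golgi tethers 10 were lower and 2 higher (median -1.39). Fewer were lower and fewer higher without PA library 2, and fewer were higher without DMSO library 1 or 2. GOLGA4 had 80.7 and 44.4 CPM in PA 24 h, against 262 and 372 CPM in DMSO 24 h. GOLGB1 had 98 and 56.8 CPM in PA 24 h, against 205 and 254 CPM in DMSO 24 h. In the 4 genes PA library 1 was the higher of the PA pair. The golgins are long and low in GC, with medians of 7440 nt and 40.7%, and their median log2 change was -0.50 under the offset, with 8 of 12 still lower. GOLGA2, the golgin GM130, rose, with 269 and 264 CPM in PA 24 h, against 143 and 163 CPM in DMSO 24 h.

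Death and survival genes of the BCL2 family leaned upward, 8 of 15 higher and 1 lower, the lower one not called without PA library 2 or DMSO library 2. Among BH3-only killers BBC3 and BMF rose, BMF with 6.35 and 6.45 CPM in PA 24 h, against 1.94 and 1.95 CPM in DMSO 24 h, while PMAIP1 (NOXA) had 79.1 and 58.6 CPM in PA 24 h, against 70.2 and 73.7 CPM in DMSO 24 h, and did not pass. BAX and BAK1, which open the mitochondrial membrane, rose by 0.65 and 1.0 on the log2 scale, BAX without a call under the offset. Guardians against death rose as well, MCL1 with 267 and 267 CPM in PA 24 h, against 161 and 171 CPM in DMSO 24 h, and BCL2L1 with 228 and 276 CPM in PA 24 h, against 119 and 152 CPM in DMSO 24 h. BCL2 itself was low and fell, with 1.16 and 1.05 CPM in PA 24 h, against 2 and 2.24 CPM in DMSO 24 h.

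Of 15 AP-1 and immediate early genes 11 were higher and none lower (median 1.11), and 8 were higher and 1 lower under the offset. Fewer were higher without DMSO library 1. JUN had 263 and 253 CPM in PA 24 h, against 125 and 146 CPM in DMSO 24 h, and JUND had 353 and 378 CPM in PA 24 h, against 74.6 and 69 CPM in DMSO 24 h. DUSP5, a phosphatase that restrains ERK, had 74.3 and 93.2 CPM in PA 24 h, against 20.5 and 27.1 CPM in DMSO 24 h (log2 change 1.81 ± 0.19, adjusted p = 9.26e-06). FOS was scarce and uneven between the PA libraries, with 1.59 and 4.08 CPM in PA 24 h, against 0.522 and 0.639 CPM in DMSO 24 h. Of 8 EGFR ligands and receptors 3 were higher and 2 lower: EGFR had 98.8 and 106 CPM in PA 24 h, against 177 and 192 CPM in DMSO 24 h, whereas the ligand AREG had 122 and 102 CPM in PA 24 h, against 66.9 and 76.6 CPM in DMSO 24 h, and HBEGF had 8.53 and 9.2 CPM in PA 24 h, against 2.15 and 3.13 CPM in DMSO 24 h. Among 13 YAP and TEAD genes 7 were lower (4 without PA library 1 and 3 without DMSO library 2) and 2 higher (1 without any single library; median -0.46), with TEAD1 at 18.2 and 17.1 CPM in PA 24 h, against 68.6 and 68.4 CPM in DMSO 24 h, CYR61 at 172 and 182 CPM in PA 24 h, against 239 and 289 CPM in DMSO 24 h, and CTGF, which did not pass, at 36.3 and 38 CPM in PA 24 h, against 28.5 and 35.7 CPM in DMSO 24 h.

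Inflammatory genes moved unevenly. Of 11 tested chemokines and cytokines 5 were higher (3 without DMSO library 1 or 2) and none lower (1 without PA library 2), all at low or moderate levels: CXCL8 had 10.6 and 12 CPM in PA 24 h, against 5.75 and 3.67 CPM in DMSO 24 h (log2 change 1.26 ± 0.27, adjusted p = 0.0016), and LIF had 62.4 and 71.5 CPM in PA 24 h, against 38.7 and 40.2 CPM in DMSO 24 h. CXCL1 had 29.6 and 28.7 CPM in PA 24 h, against 35 and 33.6 CPM in DMSO 24 h, and CCL2 had 34.5 and 37.3 CPM in PA 24 h, against 30.3 and 28.2 CPM in DMSO 24 h, and neither passed. NF-kB subunits and feedback genes were 5 higher (3 without PA library 2 or DMSO library 1) and 5 lower (3 without PA library 1 or DMSO library 2) of 12, RELA rising by 0.83 and REL falling by 1.77 on the log2 scale. ICAM1, an adhesion receptor for leukocytes, had 351 and 385 CPM in PA 24 h, against 147 and 154 CPM in DMSO 24 h. Of 13 interferon response genes 5 were higher and 1 lower; ISG15, a ubiquitin-like modifier, had 104 and 116 CPM in PA 24 h, against 36.9 and 33.6 CPM in DMSO 24 h, while IFIT1 had 34.7 and 27.5 CPM in PA 24 h, against 35.2 and 32.6 CPM in DMSO 24 h, and did not pass. Clock genes were 5 higher and 5 lower of 13, but 2 higher without PA library 2 or DMSO library 2, 3 higher without PA library 1 or DMSO library 1, 2 lower without PA library 2 and 3 lower without DMSO library 1 or 2. DBP rose by 1.51 and NR1D2 fell by 1.25 on the log2 scale.

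Epithelial filaments and junctions were mixed. The simple keratins were abundant and higher: KRT8 had 9090 and 10622 CPM in PA 24 h, against 2845 and 2900 CPM in DMSO 24 h (log2 change 1.78 ± 0.17), KRT18 had 5684 and 6743 CPM in PA 24 h, against 2325 and 2372 CPM in DMSO 24 h, and KRT19 had 3325 and 3527 CPM in PA 24 h, against 782 and 704 CPM in DMSO 24 h. Of 10 tested keratins 5 were higher and none lower (1 without PA library 2), but 4 were higher and 3 lower under the offset. ELF3, an epithelial transcription factor, had 136 and 161 CPM in PA 24 h, against 29.2 and 25.2 CPM in DMSO 24 h, and the claudin CLDN4 had 135 and 170 CPM in PA 24 h, against 45.6 and 43.9 CPM in DMSO 24 h. TJP1, a scaffold of tight junctions, fell by 0.71 on the log2 scale. Of 14 junction genes 7 were higher and 2 lower. CDH1, the gene of E-cadherin, had 1.34 and 0.593 CPM in PA 24 h, against 1.08 and 0.415 CPM in DMSO 24 h, and did not pass. Mesenchymal genes were 5 higher and 2 lower of 11: VIM had 2071 and 2570 CPM in PA 24 h, against 2005 and 2150 CPM in DMSO 24 h, without passing, CDH2 had 38.5 and 35.5 CPM in PA 24 h, against 59.9 and 70 CPM in DMSO 24 h, and ZEB1 had 14.5 and 8.82 CPM in PA 24 h, against 29.7 and 33.5 CPM in DMSO 24 h, at -0.43 on the log2 scale under the offset.

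Of 11 tested genes of the urokinase system and matrix proteases 8 were higher and none lower (median 1.04), with 1 lower without PA library 2. PLAUR, the urokinase receptor, had 13.4 and 15.9 CPM in PA 24 h, against 6.15 and 6.51 CPM in DMSO 24 h. The protease inhibitor TIMP1 had 132 and 139 CPM in PA 24 h, against 49.1 and 54.8 CPM in DMSO 24 h. MMP1, a collagenase, had 137 and 137 CPM in PA 24 h, against 121 and 148 CPM in DMSO 24 h, and did not pass. Collagens, laminins and integrins were 7 higher and 8 lower of 21, with 4 higher without DMSO library 1 and 4 higher and 10 lower under the offset, ITGA5 rising by 1.08 and LAMB1 falling by 1.29 on the log2 scale. In the S100 family 6 of 7 tested genes were higher (median 1.06); S100A4, a marker of motile cells, had 142 and 174 CPM in PA 24 h, against 28.7 and 25 CPM in DMSO 24 h.

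Among tubulins with a mean above 200 CPM TUBA1A, an isotype best known from neurons, rose most. It had 1768 and 1643 CPM in PA 24 h, against 205 and 140 CPM in DMSO 24 h (log2 change 3.31 ± 0.33, adjusted p = 8.28e-06). At low level TUBB2B and TPPP3 rose more, by 4.05 and 4.08 on the log2 scale. TUBB2B, which was almost absent from DMSO cells, had 11.9 and 14.1 CPM in PA 24 h, against 0.799 and 0.766 CPM in DMSO 24 h, and TPPP3, which promotes tubulin assembly and is counted in the list, had 8.32 and 7.18 CPM in PA 24 h, against 0.522 and 0.383 CPM in DMSO 24 h. TUBB, a widely expressed beta isotype, had 1072 and 1196 CPM in PA 24 h, against 1152 and 1301 CPM in DMSO 24 h, and did not pass. Of 12 tested genes 8 were higher (5 without PA library 2 and 4 without DMSO library 1) and none lower, against 4 higher and 4 lower under the offset, and reads of such similar genes can be shared between them.

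RNAs for ribosomes rose and those for other steps of protein synthesis did not move as a group. Of 25 cytosolic ribosomal proteins 23 were higher and none lower (median 1.01), with 22 higher under the offset; RPS3 had 2904 and 3504 CPM in PA 24 h, against 965 and 1004 CPM in DMSO 24 h, and RPLP0 had 1059 and 1399 CPM in PA 24 h, against 519 and 499 CPM in DMSO 24 h. On the RPKM scale with 1 added 16 of 25 were higher. Ribosomal proteins have many pseudogenes, so their counts are uncertain. Of 19 initiation factors 7 were higher (4 without PA library 2) and 8 lower: EIF4EBP1, a brake on cap-dependent translation, had 101 and 102 CPM in PA 24 h, against 43.2 and 50.7 CPM in DMSO 24 h, whereas EIF5B had 157 and 145 CPM in PA 24 h, against 605 and 869 CPM in DMSO 24 h. Proteasome subunits were 9 higher and 3 lower of 24, with 1 lower without PA library 2 and 14 higher and none lower under the offset. On the RPKM scale with 1 added 4 of them were higher and 8 lower. Among 18 splicing proteins 10 were lower and 1 higher, with HNRNPH1 at 263 and 206 CPM in PA 24 h, against 616 and 624 CPM in DMSO 24 h; under the offset 7 were lower and 4 higher. Of 7 nuclear long noncoding RNAs 5 were lower, NEAT1 with 216 and 188 CPM in PA 24 h, against 365 and 319 CPM in DMSO 24 h, while MALAT1 had 23257 and 12926 CPM in PA 24 h, against 16995 and 14638 CPM in DMSO 24 h, an uneven PA pair, and did not pass.

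Base composition and scaling altered some of these calls. Among the genes named so far, BAX, BCL2, CCND3, CDC25B, CDK4, CDKN1C, EIF4EBP1, FZR1, HIF1A, MAD1L1, NEAT1, NR1D2, SLC30A1, TFRC, TJP1, TK1 and TP53BP1 lost their call under the GC and length offset, and RPE was called in the opposite direction. BAX, FZR1, MAD1L1, SLC30A1, TFRC and TK1 also changed sign. Of genes not called here, CCL2, EGLN1, GCLC, HSPA5, IFIT1, KDM3A, MALAT1, MMP1, ORC4, PDK1, PLOD2, PMAIP1, PSAT1 and STARD4 were higher under it, and CDT1, CENPM, E2F1, FANCE, HSPA1A, MCM2, MCM7, MT2A, SPC24 and TUBB lower. The median log2 change of these lists was above 0 here and below 0 on the authors' RPKM scale with 1 added: aminoacyl-tRNA synthetases, serine and one-carbon enzymes, endoplasmic reticulum chaperones, heat shock genes, EGFR ligands, NF-kB genes, epithelial junctions, mesenchymal genes, proteasome subunits and initiation factors. No direction is drawn for them as groups. The medians of sterol synthesis (1.14), glycolysis (1.14), the ATF4 and CHOP list (1.66) and the kinesin list (-2.56) kept their sign on that scale. On it 7 of 18 fatty acid genes, 5 of 11 urokinase and protease genes and 4 of 15 p53 genes were higher. Splicing genes were lower in 17 of 18. Fewer members were also higher on it for ribosomal proteins (16 of 25), autophagy and lysosome genes (11 of 19) and respiratory chain subunits (15 of 26). Tubulins had 4 higher and 3 lower of 12, and proteasome subunits 4 higher and 8 lower of 24. Under the offset the NF-kB list had 2 higher and 4 lower, the clock list 3 higher and 3 lower, and the aryl hydrocarbon receptor list 5 higher and 2 lower.

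Most of what was called at 24 h was called at 12 h too, in libraries that are all different. The groups differed in their trend on GC content at 12 h as well. It was 0.578 and 0.124 log2 units per 10 points in PA 12 h and -0.319 and -0.293 in DMSO 12 h. How many shared calls go with this trend was not tested. The PA 12 h replicates correlated at 0.978 (Spearman). Of the 4127 genes higher at 24 h, 3055 were higher at 12 h (74.0% of the 24 h list and 82.6% of the 12 h list), and of the 4169 lower at 24 h, 3047 were lower at 12 h (73.1% and 83.1%). Opposite calls were rare, 15 genes that were higher at 24 h and lower at 12 h and 6 the other way. At 12 h 7363 genes were called, which is 48.5% of those tested, and at 3 h 261, which is 1.72% (0.138% higher and 1.58% lower). All 21 genes higher at 3 h were higher at 24 h, and 230 of the 240 lower at 3 h were lower at 24 h. A further 1052 higher and 1113 lower genes at 24 h were called at neither earlier time.

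The change itself was then tested between times. The PA effect at 24 h differed from that at 12 h for 64 genes (0.422%), 40 with a higher (0.263%) and 24 with a lower change at 24 h (0.158%), and from that at 3 h for 2192 genes (14.4%), 1251 higher (8.24%) and 941 lower (6.2%). The count for 12 h is fragile: edgeR called 0 with only the 8 libraries of the 2 times in the fit (1128 at an unadjusted p under 0.05), where DESeq2 called 78. With all libraries but 1 it was between 4 and 14 without any 1 of the DMSO libraries, 522 and 316 without PA 12 h library 1 or 2, and 22 without PA 24 h library 1. That for 3 h lay between 665 and 1797 with 1 library left out, the lowest without DMSO 24 h library 2. Of the 64 genes, 27 had changes above 0 at 24 h and below 0 at 12 h, 17 were larger falls at 24 h and 12 were larger rises.

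**Figure D4:**
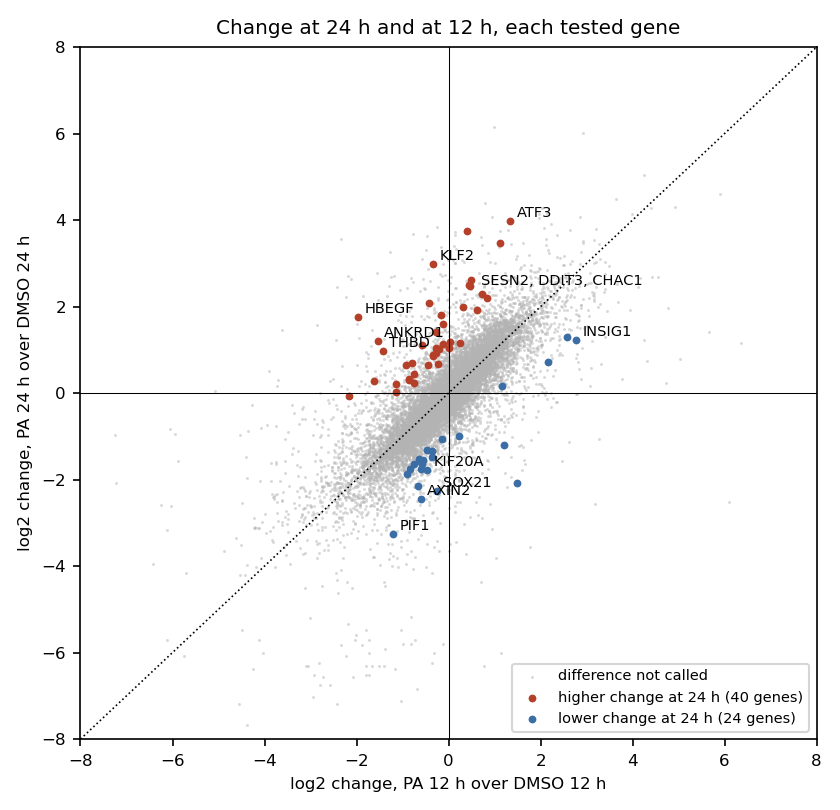
Each point is a tested gene; the horizontal axis is its log2 change, PA 12 h over DMSO 12 h, the vertical axis its log2 change, PA 24 h over DMSO 24 h, and the dotted line marks equal change. Red points are the 40 genes with a higher and blue points the 24 genes with a lower change at 24 h by the test of the difference; ATF3 lies at 3.98 at 24 h and 1.34 at 12 h, and INSIG1 at 1.23 at 24 h and 2.78 at 12 h.

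Read by list, several groups stood at different levels at the 2 times, where 24.4% of all genes were higher and 24.1% lower at 12 h. The ATF4 and CHOP list had a median of 2.11 at 24 h (14 of 14 higher) and 0.47 at 12 h (6 of 14). AP-1 genes had 11 of 15 higher at 24 h and 3 higher with 2 lower at 12 h. The median of the kinesin list was -2.60 at 24 h and -1.82 at 12 h, and that of sterol synthesis 1.5 at 24 h and 2.11 at 12 h. Differences between list medians were not tested.

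The ATF4 and CHOP genes were the list with the most called differences between the times, 6 of 14, all toward 24 h, where 64 of 15181 genes differed. DDIT3 had 246 and 183 CPM in PA 24 h, against 36.2 and 40.2 CPM in DMSO 24 h, and it had 50.1 and 44.8 CPM in PA 12 h, against 30.7 and 39.3 CPM in DMSO 12 h, a difference between times of 2.05 ± 0.28 (log2, SE; adjusted p = 0.00756). ATF3 differed by 2.64 ± 0.29 (adjusted p = 0.0024). ATF4, CHAC1, SESN2 and PPP1R15A were the other 4, with changes at 12 h of 0.04, 0.46, 0.48 and 0.32 on the log2 scale, against 1.18, 2.48, 2.61 and 1.99 at 24 h. DDIT3 was level with its 0 h value of 36.6 and 38 CPM in every DMSO group, and the libraries that stand apart are those of PA 24 h.

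Other genes had a higher change at 24 h than at 12 h, among them 2 of 8 EGFR ligands and receptors, 3 of 15 AP-1 genes and 3 of 13 YAP genes, and in some the DMSO libraries differed between the times as well. HBEGF, a ligand of EGFR, had 8.53 and 9.20 CPM in PA 24 h, against 2.15 and 3.13 CPM in DMSO 24 h, and 1.55 and 2.64 CPM in PA 12 h, against 7.12 and 9.21 CPM in DMSO 12 h. The difference was 3.71 ± 0.38 (log2, SE; adjusted p = 0.00187). Cells at 0 h had 7.99 and 8.61 CPM, so HBEGF after 24 h PA was near its starting level while DMSO 24 h was below it. KLF2, a transcription factor of quiescence, had 10.8 and 9.76 CPM in PA 24 h, against 1.01 and 1.56 CPM in DMSO 24 h, and at most 2.46 CPM in the other 10 libraries. ANKRD1, a muscle ankyrin repeat protein and YAP target, had a change of 1.20 at 24 h and -1.54 at 12 h. The other 2 of the 6 largest were FAM159B and THBD, with differences of 2.52 ± 0.45 and 2.39 ± 0.46. AREG, JUN, DUSP5, DUSP6, MCL1, CTGF, F3, MMP1, TXNRD1 and GADD45A were the remaining list members whose change was higher at 24 h than at 12 h; CTGF, F3 and MMP1 did not pass at 24 h itself.

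The larger falls at 24 h included mitotic genes. KIF20A had 40.7 and 42.0 CPM in PA 24 h, against 142 and 144 CPM in DMSO 24 h, and 106 and 107 CPM in PA 12 h, against 144 and 149 CPM in DMSO 12 h, a difference of -1.33 ± 0.17 (log2, SE; adjusted p = 0.00644). KIF4A, TPX2, AURKA, BIRC5, CDCA8, CCNB1, CCNB2 and NCAPH, all genes of G2 and mitosis, were called for the same difference. The helicase PIF1, the kinetochore factor OIP5, the Wnt feedback gene AXIN2 and the neural transcription factor SOX21 differed by -2.06 ± 0.35, -1.49 ± 0.27, -1.85 ± 0.35 and -2.0 ± 0.31. ZNF792, a zinc finger gene at low level, differed by -2.42 ± 0.47. Its change was -1.21 at 24 h and above 0 at 12 h, so it was not a larger fall. INSIG1 was the one gene of the sterol lists called, with a smaller change at 24 h: it had 525 and 547 CPM in PA 24 h, against 253 and 205 CPM in DMSO 24 h, and 481 and 481 CPM in PA 12 h, against 79.3 and 60.7 CPM in DMSO 12 h.

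**Figure D5:**
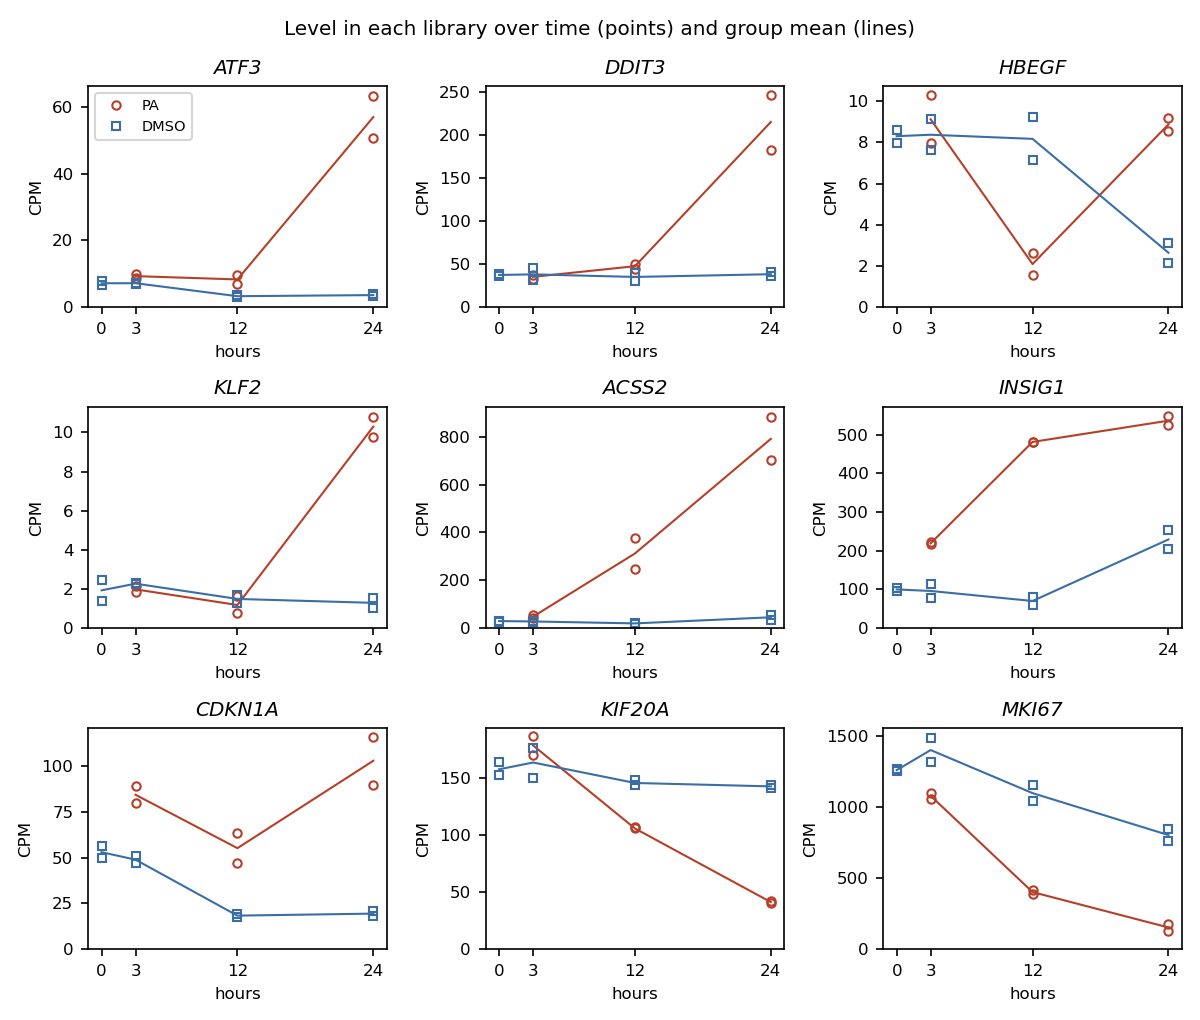
Level in CPM (vertical axes, from 0) over hours for 9 genes in every library, with circles and red lines (group mean) for PA at 3, 12 and 24 h and squares and blue lines for DMSO at 0, 3, 12 and 24 h, 2 libraries a point in time. ATF3 and DDIT3 stand apart from DMSO mainly at 24 h, KIF20A and MKI67 drop step by step under PA, HBEGF is lower in DMSO 24 h than at 0 h, and KLF2 is higher in PA 24 h than in any other group.

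Set against 3 h, the largest gains at 24 h were in TPPP3, ATF3, LCN2, ACSS2, TUBB2B and ALDOC, with differences of 3.24 to 3.71 on the log2 scale among those 6, and the largest losses in EDRF1, DEPDC1, TOP2A, DLGAP5, BRIP1 and ARHGAP11A. LCN2 had 5.04 and 5.75 CPM in PA 24 h, against 0.246 and 0.351 CPM in DMSO 24 h. At 3 h it had 6.98 and 5.43 CPM in PA cells, against 3.52 and 4.36 CPM in DMSO cells, so the DMSO libraries differ more between the times than the PA libraries do. ACSS2 had 701 and 881 CPM in PA 24 h, against 54.4 and 35.7 CPM in DMSO 24 h. At 3 h it had 53.2 and 42.7 CPM in PA cells, against 27.3 and 28.0 CPM in DMSO cells.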

How the data were processed

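Gene counts and RPKM values deposited by the authors for 14 libraries were used. The submitters' processing notes name GRCh38, TopHat2 and edgeR; no counting tool, strand setting or annotation release is stated in the labels. The counts were used as the authors deposited them. The authors' RPKM values, which scale reads by transcript length and depth, served for levels between genes and for alternatives with 1 or 0.1 added before taking log2.

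Genes passing edgeR's expression filter (15181 of 28120) were fitted over all 7 groups with trimmed-mean scaling and edgeR 4.0.16 (R 4.3.3) quasi-likelihood tests, with Benjamini-Hochberg adjustment over all genes tested and a threshold of 0.05. The fit had 7 residual degrees of freedom and a biological coefficient of variation of 15.1%. On simulated counts with 200 changed genes of 15181, the 24 h comparison recovered 79% of 2-fold and 100% of 4-fold changes, with 8 false calls. Far fewer genes changed there than were called in the data, and no trend on GC content was simulated. Errors of scaling or base composition were therefore not covered. Differences between times were contrasts of the same fit. Alternatives used DESeq2 1.42.0, limma 3.58.1, other filters, fewer libraries, a replicate block, and an offset for each library's trend on GC content and length, a spline with 5 degrees of freedom.

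A floor of 3 counts corresponds to 0.0873 and 0.0877 CPM in the PA 24 h libraries and 0.100 and 0.102 CPM in the DMSO 24 h libraries, and covers counting error only. Named genes were the 10 largest changes each way at a mean of at least 2 CPM, the 5 largest at 200 CPM, leading and role-giving members of each list, and the 6 largest differences each way between times. The largest changes were taken among called genes, clone names left out, with both PA libraries beyond both DMSO libraries. Separation of their groups is therefore a result of the choice. Leading members of a list were called members with the smallest p, which favours separated groups too. The comparison and the gene lists were chosen with earlier results of these data known. Promoter windows came from RefSeq (GRCh38.p14). Genes with near-identical copies (ribosomal proteins, tubulins, histones, HSPA1A) are uncertain. Libraries with the same replicate number in different groups did not deviate together, with correlations between -0.218 and 0.244 and above 0.1 in 2 of 21 pairs of groups, so the numbers were not treated as pairs. Some genes are not reported here.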

Additional observations from a re-analysis of the deposited data

Results flagged for a closer look

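Several genes stood out because the PA effect itself differed between times by a test of that difference (edgeR quasi-likelihood contrast, adjusted p under 0.05). Values are differences of log2 changes, and no cause was tested.

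Between 24 h and 12 h 64 genes differed. The PA effect was higher at 24 h for HBEGF by 3.71, KLF2 by 3.32, ANKRD1 by 2.74, ATF3 by 2.64, FAM159B by 2.52 and THBD by 2.39. The differences were -2.42 for ZNF792, -2.06 for PIF1, -2.0 for SOX21, -1.85 for AXIN2, -1.55 for INSIG1 and -1.49 for OIP5.

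Between 24 h and 3 h 2192 genes differed. The PA effect was higher at 24 h for TPPP3 by 3.71, ATF3 by 3.61, LCN2 by 3.51, ACSS2 by 3.34, TUBB2B by 3.25 and ALDOC by 3.24. The differences were -3.25 for EDRF1, -2.64 for DEPDC1, -2.62 for TOP2A, -2.60 for DLGAP5, -2.55 for BRIP1 and -2.54 for ARHGAP11A.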

How the results depend on the processing

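Each group has 2 libraries, which limits every count. Counts of list members could also differ with 1 library left out where this is not stated. The 24 h count of 8296 genes lay between 6098 and 7510 with 1 library left out, and was 8280 with DESeq2 and 8033 with the replicate block. Genes higher at 24 h numbered 2574 and 2651 on log2(RPKM + 0.1) and log2(RPKM + 1) and 2354 with RPKM of at least 1. The 64 differences between 24 h and 12 h became 203 with DESeq2, 344 with the GC and length offset, 269 with no filter, 23 with the replicate block, 257 with the block and the offset, and 0 in edgeR with only those 8 libraries (1128 at an unadjusted p under 0.05; 78 called by DESeq2). Leaving out 1 library gave 4 to 522: for the DMSO libraries 4 and 14 (24 h, replicates 1 and 2) and 8 and 4 (12 h), for the PA libraries 22 (24 h, replicate 1) and 522 and 316 (12 h). The 2192 differences between 24 h and 3 h became 3636 with only those 8 libraries and lay between 665 and 1797 with 1 library left out: for the DMSO libraries 808 and 665 (24 h, replicates 1 and 2) and 723 (3 h, replicate 1), for the PA libraries 1002 (24 h, replicate 2) and 1243 and 695 (3 h).

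The 242 tested genes named here were compared with their value under each alternative. In 3546 comparisons direction and side of the threshold held, in 119 the call was lost, in 87 a call was gained and in 99 the sign changed. Of genes called here, the sign changed with the offset, alone or with the block, for RPE (0.43, still called), and without a call for SLC30A1 (0.31), TFRC (0.24, and 0.25 with the block), TK1 (-0.35), BAX (-0.02, and -0.03 with the block), FZR1 (-0.12) and MAD1L1 (-0.07). Of genes not called here, it changed with the offset, alone or with the block, for ABCA1 (0.17), ACTB (-0.22), CENPW (0.34), F3 (0.30), FANCF (0.01), GCLC (0.42), HSPA1A (-0.33), IFIT1 (0.54), ORC4 (1.03), PMAIP1 (0.82), PSAT1 (0.49), STARD4 (1.22, and 1.24 with the block) and VIM (-0.18, and -0.19 with the block). On the RPKM scales it changed for ACTB (-0.06), CCL2 (-0.02), CTGF (-0.10), HSPA5 (-0.31), IDI1 (-0.09 with 0.1 added and -0.02 with 1 added), KDM3A (-0.05), MALAT1 (-0.18), MMP1 (-0.29 and -0.28), PLOD2 (-0.28 and -0.25) and VIM (-0.17). It also changed for CDT1 and PSAT1 with DESeq2 or its size factors (0.01 each), for HSPA5 (-0.02) and MMP1 (-0.01) with no filter, and for HSPA5 with only the 4 libraries (-0.01).

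With 1 library left out the value also crossed 0 for these genes, none of them called here: -0.33 to 1.21 for CDH1, -0.24 to 0.28 for CDT1, -0.30 to 0.04 for E2F1, -0.35 to 0.17 for F3, -0.70 to 0.02 for FANCE, -0.15 to 0.10 for GCLC, -0.02 to 0.03 for HSPA5, -0.30 to 0.03 for IFIT1, -0.29 to 0.55 for MALAT1, -0.19 to 0.06 for MCM2, -0.11 to 0.17 for MMP1, -0.30 to 0.16 for ORC4, -0.20 to 0.27 for PLOD2, -0.29 to 0.13 for PMAIP1, -0.09 to 0.08 for PSAT1, -0.33 to 0.21 for STARD4 and -0.01 to 0.31 for VIM. The cause of these changes was not tested beyond each alternative's own construction. A change of 2-fold at low level can be missed at this depth.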
